A study of Oryctolagus cuniculus with 3 samples.

Results

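The genes described here are 3 receptors of the epidermal growth factor (EGF) family (EGFR, ERBB2 and ERBB3), 6 of their ligands (AREG, EREG, HBEGF, TGFA, BTC and EPGN) and the receptor inhibitor ERRFI1. They were taken by gene symbol from a fixed list of 10 names, and all 10 were found among 20536 gene names. RNA was sequenced from RCE1(5T5), a rabbit corneal epithelial cell line, with 1 library of non-differentiated cells on day 4, 1 of committed cells on day 6 and 1 of terminally differentiated cells on day 10. In each stage the cells were grown on mitomycin C-treated 3T3 fibroblasts, which were detached with EDTA before extraction, in a serum-containing medium with insulin, hydrocortisone, cholera toxin and 10 ng/ml EGF. The same line and medium served all 3 stages, and no stage was without added EGF. With 1 library for each stage no test was possible. Stage, day and library cannot be told apart, and intervals in brackets are 95% counting intervals that say nothing of how cultures vary.

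EGFR is a receptor tyrosine kinase that pairs with itself or with its relatives once a ligand is bound, and it drives the RAS, ERK and PI3 kinase pathways. Its ligands are made as membrane-anchored precursors and released by metalloproteases of the ADAM family, so a cell can stimulate itself and its neighbours. In the cornea this loop is known for its part in the migration and proliferation that close an epithelial wound. ERBB2 has no known soluble ligand and acts as a partner, while ERBB3 binds neuregulins and has little kinase activity of its own.

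The libraries held between 10171693 and 12582706 fragments. Levels within a gene are given as CPM, fragments per 1000000 after scaling by edgeR's TMM factors (trimmed mean of M values). Genes that got to 1 CPM or more in any of the libraries count as measured, 12818 in all, and a difference was called when log2(CPM + 1) differed by at least 2-fold. That added 1 makes the calls stricter for low genes than the folds, which are plain ratios of CPM. Of the 10 members 9 were measured, BTC being the exception. Epithelial markers were present throughout, with KRT5 between 13552 and 23374 CPM and the cadherin CDH1 between 155 and 291 CPM. KRT12, a defining keratin of differentiated corneal epithelium, was without a fragment (0) on day 4 and reached 121 CPM by day 10, and KRT14 was not analysed here.

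Between day 4 and day 6, 3 of the 5 measured ligands fell, the receptor EGFR and the ligand TGFA did not change by 2-fold, and ERBB3 rose. Over 9 measured members that made 3 falls and 1 rise. Of all measured genes, 6.73% fell and 8.06% rose at this step. From day 6 to day 10, 1 member rose, again ERBB3, and 0 fell, against 8.25% and 7.1% of all measured genes. From day 4 to day 10 the same 3 ligands were called as falls and ERBB3 as a rise, against 15.8% and 17.1% of all measured genes. This last comparison shares a library with each of the other 2 and adds no independent evidence. Risers made up 54.5% of the called genes between day 4 and day 6, but 39.3% with scaling to library size and 25.5% on the TPM scale; the median over all genes then lay at -0.14 and -0.30 in log2 units. From day 4 to day 10 they made up 52.0%, and 31.9% with TPM, whose median shift was -0.31.

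**Figure D1:**
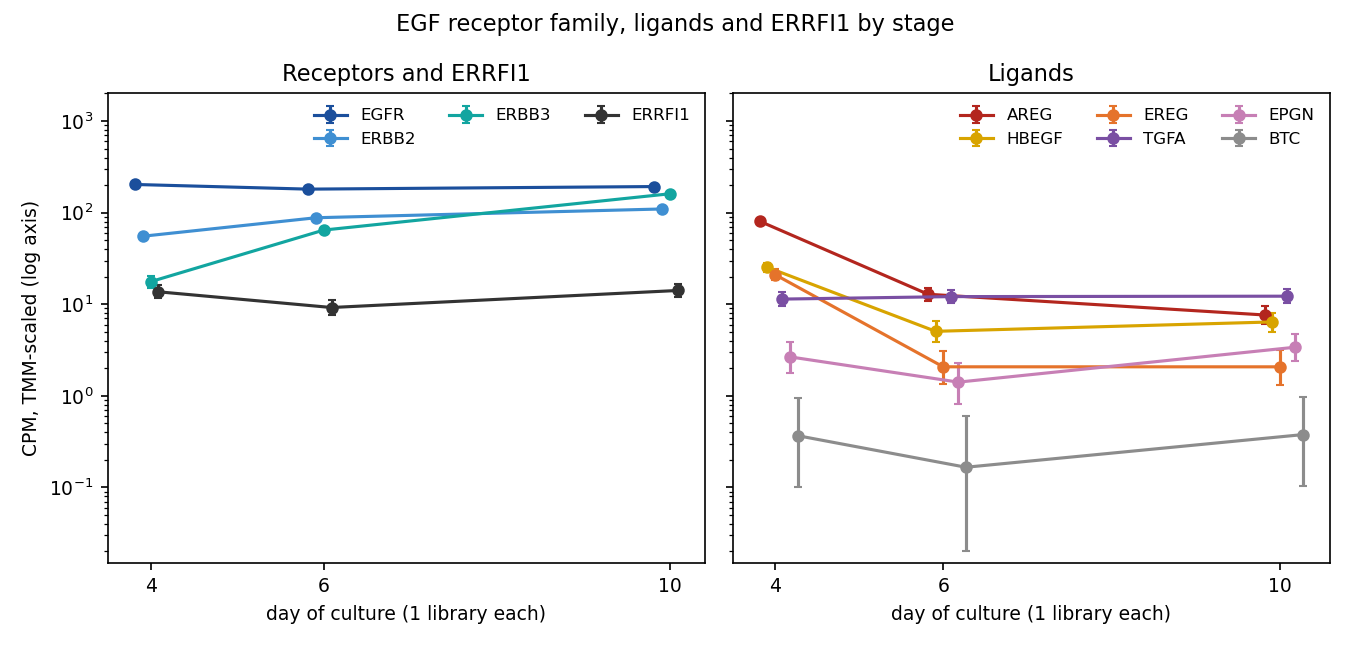
CPM of the receptors and ERRFI1 (left) and of the 6 ligands (right) on a log axis against day of culture, 1 library each, with 95% Poisson counting intervals. AREG, EREG and HBEGF dropped between days 4 and 6, TGFA stayed between 11.4 and 12.2 CPM, and ERBB3 climbed from 17.6 to 161 CPM.

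AREG (amphiregulin), an EGFR ligand of low affinity, was counted with 878, 155 and 81 fragments on days 4, 6 and 10. On the CPM scale these were 80.6, 12.9 and 7.63. The day 4 library stood above the other two, whose counting intervals did not meet either. AREG fell 6.27-fold [5.28 to 7.48] between day 4 and day 6, which was place 25 from the largest fall among the 12818 measured genes. The further ratio from day 6 to day 10, 0.594 [0.448 to 0.781], did not reach the 2-fold threshold. Over the whole interval AREG fell 10.6-fold [8.41 to 13.4]. The tables list 3 coding sequences for AREG with identical values, so the fragments had been divided equally and transcript forms cannot be told apart.

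EREG (epiregulin), which binds EGFR and ERBB4, was at 21.1, 2.07 and 2.07 CPM on days 4, 6 and 10, from 230, 25 and 22 fragments. Its drop was complete by day 6, and the later libraries had overlapping intervals. The fall to day 6 was 10.2-fold [6.72 to 16.1], place 12 from the largest fall among all measured genes. HBEGF, the heparin-binding ligand of EGFR and ERBB4, was at 25.3, 5.06 and 6.40 CPM, from 276, 61 and 68 fragments. It followed the same course, high on day 4 and low in both later libraries. HBEGF fell 5.01-fold [3.78 to 6.72] by day 6, at place 70, and its ratio from day 6 to day 10 was 1.27 [0.883 to 1.82]. The interval of that ratio includes 1.

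Markers of fibroblasts, which the feeder layer could contribute, were also highest on day 4. Summed over 20 marker genes they came to 8247, 5314 and 3374 CPM on days 4, 6 and 10. Of 19 measured markers, 19 were lower on day 6 than on day 4 and 5 fell, and 16 fell by day 10 while THY1 rose. The matrix protein gene LUM had 0 fragments in all 3 libraries, and ACTA2 was the most abundant with 2362, 1644 and 1246 CPM. TAGLN had the largest fall of the list to day 6, 5.44-fold, and COL6A2 the largest to day 10, at a log2 difference of -2.86. The 3T3 feeder cells are mouse cells, while the counts were made on a rabbit genome build. How much feeder RNA was counted, and its part in the marker and ligand values, was not tested. In such bulk samples fewer cells of a type and less RNA per cell cannot be told apart.

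TGFA, the ligand first known from transformed cells and a strong EGFR agonist, was at 11.4 CPM on day 4, 12.1 on day 6 and 12.2 on day 10, from 124, 146 and 130 fragments. The intervals of the 3 libraries overlapped. Its ratio from day 4 to day 10 was 1.08 [0.835 to 1.39], so a 2-fold change in either direction lies outside the counting error of these libraries. On the TPM scale the same difference was -0.34 in log2 units, close to the shift of all genes on that scale.

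EPGN (epigen), a ligand of low affinity, had 29, 17 and 36 fragments, or 2.66, 1.41 and 3.39 CPM. Its intervals on days 4 and 10 overlapped, and that on day 6 lay below the day 10 one. The ratio from day 4 to day 6 was 0.530 [0.273 to 0.997] and was not called. The ratio from day 6 to day 10 was 2.41 [1.32 to 4.57], yet on the log2(CPM + 1) scale it was 0.87 and not called; it was called with an added 0.1. BTC (betacellulin), a ligand of EGFR and ERBB4, had 4, 2 and 4 fragments and stayed below 1 CPM, so no difference was detectable at this depth.

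EGFR was the most abundant member on the CPM scale in each library, with 203 CPM on day 4, 181 on day 6 and 193 on day 10. These values stood on 2213, 2178 and 2046 fragments. The 3 libraries lay close together, with the day 6 value the lowest. Its ratios were 0.889 [0.838 to 0.944] at the first step and 1.07 [1.00 to 1.13] at the second, and 0.949 [0.893 to 1.01] over the whole interval. The 3 EGFR coding sequences in the tables gave ratios of 0.884 to 0.893 at the first step.

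ERBB2 was at 55.2 CPM on day 4, 88.0 on day 6 and 109.7 on day 10, from 602, 1061 and 1165 fragments. Each library lay above the one before it, with no overlap of counting intervals. The ratio was 1.59 [1.44 to 1.76] at the first step and 1.25 [1.15 to 1.36] at the second. Over the whole interval it was 1.99 [1.80 to 2.20], a log2 difference of 0.98 that stands just under the threshold. It passed with read counts in place of fragment counts, at 1.02.

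ERBB3 changed the most among the receptors. Its counts were 192, 778 and 1707 fragments on days 4, 6 and 10, or 17.6, 64.5 and 161 CPM. The libraries were well separated, in the order of the days. ERBB3 rose 3.66-fold [3.12 to 4.31] by day 6 and another 2.49-fold [2.29 to 2.72] by day 10. The total rise was 9.12-fold [7.86 to 10.7], place 186 from the largest rise among the measured genes. Both ERBB3 coding sequences in the tables moved in this way, with whole-interval ratios of 8.81 and 9.43. CD68, a macrophage and lysosome gene on the immune marker list, was also lowest on day 4 and highest on day 10, at 5.60, 25.1 and 68.0 CPM, and rose 12.2-fold [9.35 to 16.1] from day 4 to day 10; its part in the receptor values was not tested. On the same list no fragment (0) was counted for TYROBP or FCER1G in any library, while PTPRC had 16, 22 and 16 fragments and CSF1R 6, 4 and 7. Of the endothelial markers PECAM1 was at 0 throughout, KDR was at 2.39, 6.80 and 5.84 CPM and CDH5 at 21, 5 and 4 fragments.

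ERRFI1 (also called MIG6) binds the kinase domain of EGFR family receptors and blocks it, and EGFR signalling is known to induce it. It was at 13.7 CPM on day 4, 9.21 on day 6 and 14.1 on day 10, from 149, 111 and 150 fragments. The day 6 library was the lowest and its interval lay below those of the others, which overlapped. The ratios were 0.673 [0.522 to 0.867] and 1.53 [1.19 to 1.98], neither of them called.

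Levels of different genes were compared within a library on the deposited TPM scale, which corrects for coding length. On day 4 AREG led the members with 106.5 TPM, ahead of EGFR at 53.8, HBEGF at 39.0, EREG at 31.3, TGFA at 22.1 and ERBB2 at 13.3. HBEGF and EREG overlapped within their counting intervals, as did ERBB2 and ERRFI1 (11.3 TPM), and EPGN and ERBB3 (5.3 and 4.4 TPM). On day 6 EGFR was first with 36.9 TPM, followed by TGFA at 17.7, ERBB2 at 16.8, AREG at 12.9 and ERBB3 at 12.5. TGFA and ERBB2 overlapped, and so did AREG and ERBB3. On day 10 EGFR had 39.6 TPM, ERBB3 30.8, ERBB2 21.2 and TGFA 17.2. EGFR, ERBB3 and ERBB2 did not overlap, whereas ERBB2 and TGFA did narrowly. Below them ERRFI1, HBEGF, AREG, EPGN and EREG lay between 8.7 and 3.1 TPM, each overlapping with the next. BTC was last in each library, at 0.3 to 0.5 TPM.

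The mix of ligand RNA therefore differed between the stages. AREG made up 52.0% of the summed TPM of the 6 ligands on day 4, 30.7% on day 6 and 17.8% on day 10. TGFA made up 10.8%, 42.1% and 42.6%, although its own CPM did not change by 2-fold. The sum of the ligands was 204.7 TPM on day 4, 42.0 on day 6 and 40.4 on day 10. Among the receptors EGFR held 75.2%, 55.7% and 43.2% of the summed TPM, and ERBB3 6.2%, 18.9% and 33.6%. The receptor sum was 71.5, 66.2 and 91.6 TPM. Ligand RNA was thus at 2.86 times receptor RNA on day 4, 0.634 times on day 6 and 0.441 times on day 10. These are ratios of RNA and not of protein. Their receptor sum includes ERBB2 and ERBB3, while NRG1, a ligand gene of ERBB3, is outside their ligand sum. With NRG1 the ligand sum was 300.3, 73.2 and 57.8 TPM, above the receptor sum on days 4 and 6 and below it on day 10. EGFR alone was at 53.8, 36.9 and 39.6 TPM, below the sum of the 6 ligands on days 4 and 6 and level with it on day 10. Between libraries the TPM sums also carry a shift of all genes, with a median of -0.30 log2 units from day 4 to day 6. On the CPM scale the receptor sum was 276, 333 and 463, higher at each step, and the ligand sum 141, 33.7 and 32.1. The levels sum the coding sequences of a gene, among which the fragments were divided. With the highest coding sequence alone the order of EGFR and ERBB2 turned on days 6 and 10: EGFR was at 12.4 TPM and ERBB2 at 16.8 on day 6, and on day 10 EGFR was at 13.3, ERBB3 at 15.7 and ERBB2 at 21.2. The EGFR share was then 34.9% on day 6 and 26.5% on day 10.

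**Figure D2:**
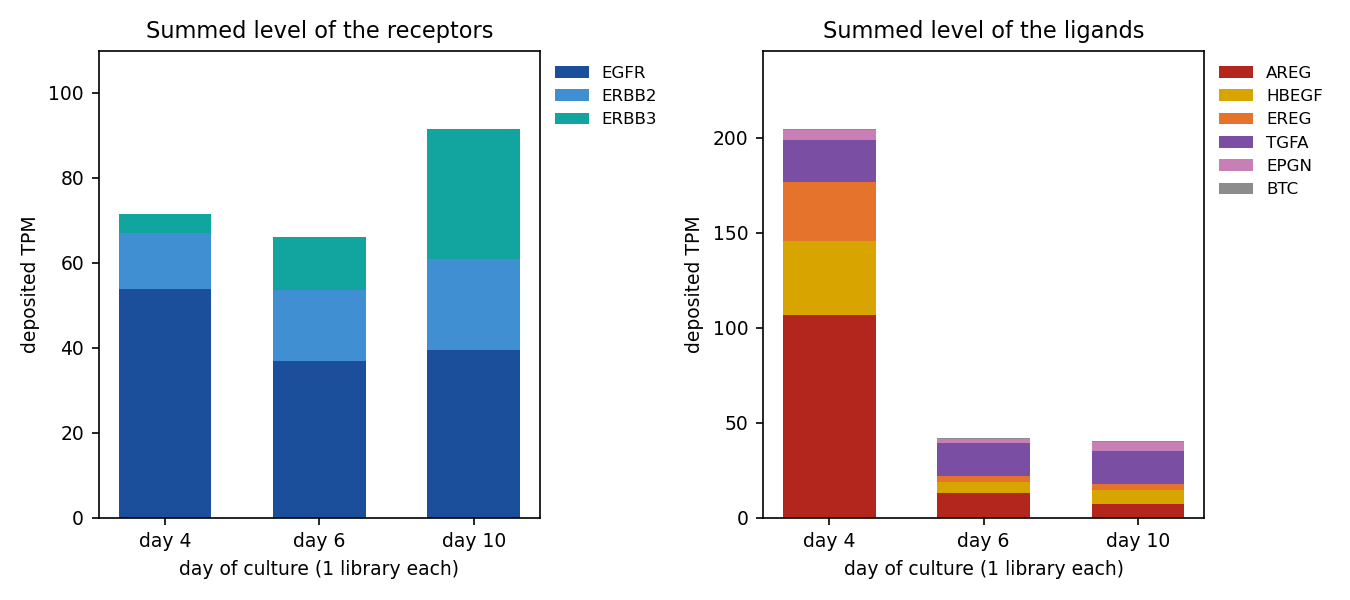
Deposited TPM of the 3 receptors (left) and 6 ligands (right), stacked, for each library. The ligand sum went from 204.7 TPM on day 4 to 40.4 on day 10, where TGFA was the largest part, and the ERBB3 part of the receptor bar grew from 4.4 to 30.8 TPM. Over that interval the median of all genes on this scale shifted by -0.31 log2 units.

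Among the other ERBB ligands and receptor, NRG1 was the abundant one. NRG1 encodes neuregulins, the ligands of ERBB3 and ERBB4, and was at 164 CPM on day 4, 68.4 on day 6 and 38.3 on day 10. Each library was below the one before it. NRG1 fell 2.40-fold [2.21 to 2.61] at the first step and 4.28-fold [3.84 to 4.78] over the whole interval, with a second-step ratio of 0.560 [0.496 to 0.632] that was not called. On the TPM scale it stood at 95.6 [91.2 to 100.1] on day 4, below AREG at 106.5 [99.6 to 113.8], with intervals that overlapped narrowly. On day 10 it was at 17.4, level with TGFA. The RNA of this ligand thus went down while that of its receptor ERBB3 went up. The fibroblast markers were lower as well, with medians of -0.86 by day 6 and -1.61 by day 10. Which cells the NRG1 RNA came from, and the part of feeder RNA in it, was not tested. The ratio of NRG1 to ERBB3 in TPM was 21.7, 2.50 and 0.565. The tables split NRG1 over 15 coding sequences that share fragments, and their whole-interval ratios lay between 0.214 and 0.249. EGF itself had 12, 19 and 21 fragments, 1.10 to 1.98 CPM, beside the EGF added to the medium, and NRG2 12 to 19. ERBB4 had 8, 2 and 0 fragments, NRG3 2, 0 and 0 and NRG4 1, 6 and 5, so that these 3 were not measured.

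**Figure D3:**
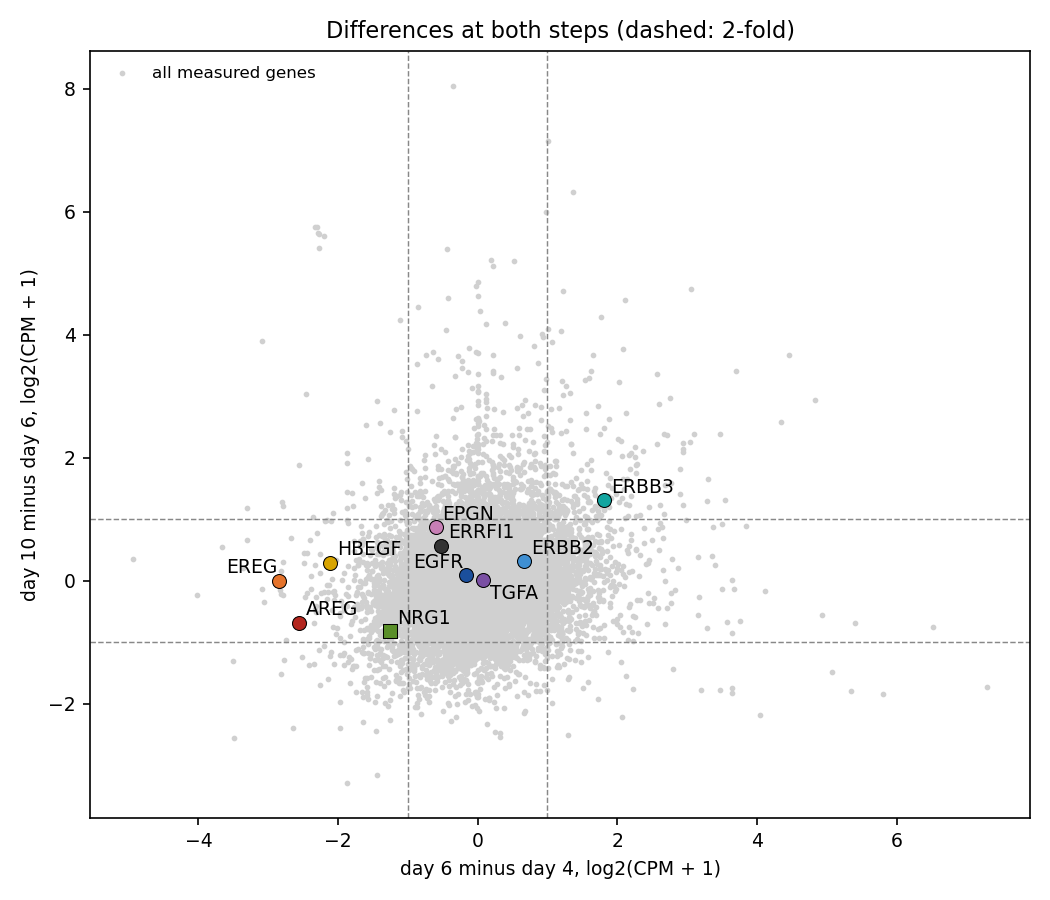
Difference of log2(CPM + 1) from day 4 to day 6 (horizontal) against that from day 6 to day 10 (vertical) for 12818 measured genes (grey), 9 members (circles) and NRG1 (square), with 2-fold lines. AREG, EREG and HBEGF lie at the left edge of the cloud near 0 on the vertical axis or, for AREG, at -0.68, and ERBB3 lies past 2-fold on both axes.

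Of 11 genes for ligand shedding, 2 fell and 0 rose by day 6 relative to day 4, with a median of -0.11 beside 0.00. Of all measured genes 6.73% fell and 8.06% rose. By day 10 relative to day 4, 1 fell and 1 rose, against 15.8% and 17.1%, with a median of -0.08 beside 0.01. From day 6 to day 10, 0 fell and 2 rose, against 7.1% and 8.25%. ADAM17, the main sheddase of AREG, EREG, HBEGF and TGFA, was at 72.1, 62.0 and 43.1 CPM. Its whole-interval ratio was 0.598 [0.532 to 0.672] and was not called. ADAM10, which releases BTC and EGF, was at 73.1, 67.4 and 156 CPM and rose 2.32-fold [2.13 to 2.53] from day 6 to day 10. ADAM12, a protease also found in mesenchymal cells, went from 66 fragments to 7 and 3, a fall of 10.4-fold [4.79 to 27.0] by day 6. TIMP3, an inhibitor of ADAM17, fell 3.39-fold [2.75 to 4.20] by day 6 and rose 3.21-fold [2.59 to 3.99] from there to day 10, at 33.4, 9.87 and 31.7 CPM. The rhomboid-like genes RHBDF1 and RHBDF2, which bring ADAM17 to maturity, were at 72.4 to 79.8 and 34.9 to 38.1 CPM.

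Of 5 receptor or ligand partners, 1 rose by day 6 and 2 by day 10, each relative to day 4, with 0 falls. Of all measured genes 8.06% and 17.1% rose, and 6.73% and 15.8% fell. CD9, a tetraspanin that binds the HBEGF precursor, was at 359, 623 and 983 CPM and rose 2.74-fold [2.64 to 2.84] over the whole interval. MUC4, a membrane mucin known from rat cells to bind ERBB2, was at 1.01, 15.8 and 450 CPM and rose 445-fold [249 to 893]. CD44, MUC1 and the ERBB2-binding scaffold ERBIN were not called, MUC1 being at 19.1, 18.6 and 37.2 CPM.

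Of 21 measured genes for adaptors and kinases downstream, 1 rose by day 6 and 4 by day 10, near the 8.06% and 17.1% of all measured genes. None (0) of them fell in either comparison, against 6.73% and 15.8%, and their medians were 0.09 and 0.01. MAPK3, which encodes ERK1, was at 42.4, 104 and 162 CPM and rose 3.83-fold [3.45 to 4.25] over the whole interval. The docking protein gene GAB1 rose 3.19-fold [2.48 to 4.14], the exchange factor gene SOS2 2.53-fold [2.14 to 2.99] and the kinase gene BRAF 2.08-fold [1.83 to 2.37]. The last 3 rose at the second step.

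Among 16 measured genes for receptor turnover and dampening, 2 rose and 2 fell by day 6, and 4 rose and 1 fell by day 10. Among all measured genes 8.06% rose and 6.73% fell by day 6, and 17.1% and 15.8% by day 10. CBLC, an epithelial ubiquitin ligase of the CBL family, was at 8.26, 19.2 and 25.3 CPM and rose 3.07-fold [2.41 to 3.94] over the whole interval. PTPRJ, a receptor-type phosphatase, fell 2.66-fold [1.84 to 3.91] by day 6 and then rose 8.57-fold [6.20 to 12.1]. USP8, a deubiquitinase of endosomes, rose 2.12-fold [1.92 to 2.35] at the second step. HGS and STAM, partners in sorting ubiquitinated receptors, moved apart at the first step. HGS went up 6.88-fold [4.19 to 11.9] from 18 to 137 fragments and STAM down 2.10-fold [1.90 to 2.32]. At the second step both turned back, uncalled, with ratios of 0.464 [0.334 to 0.638] for HGS and 1.54 [1.38 to 1.71] for STAM. From day 4 to day 10 HGS was still called as a rise, at 3.19-fold [1.85 to 5.77], and STAM was not called. SH3KBP1, an adaptor of CBL, fell 2.37-fold [2.02 to 2.79] by day 10.

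Genes known as targets or feedback regulators of ERK signalling lay lower. Of 15 measured genes 6 fell and 1 rose by day 6, with a median of -0.61, and 8 fell and 0 rose by day 10, with a median of -1.06 beside 0.01 for all measured genes. Of all measured genes 6.73% fell and 8.06% rose by day 6, and 15.8% fell and 17.1% rose by day 10. The fibroblast markers were lower too, with medians of -0.86 and -1.61, and their part in these values was not tested. DUSP5, a nuclear ERK phosphatase, was at 24.8, 2.74 and 2.17 CPM and fell 9.05-fold [6.29 to 13.4] by day 6. The AP-1 gene FOSL1 fell 24.8-fold [17.5 to 36.3] over the whole interval. DUSP4 fell 3.97-fold [3.19 to 4.99] and then rose 2.92-fold [2.32 to 3.71], at 34.0, 8.54 and 25.0 CPM. DUSP6, a cytoplasmic ERK phosphatase, was at 32.2 and 29.4 CPM on days 4 and 6 and fell 2.52-fold [2.05 to 3.12] at the second step. SPRY1 went the other way at the first step and rose 3.78-fold [2.35 to 6.32]. SPRED2, an inhibitor of RAF activation, fell 4.21-fold [3.14 to 5.71] by day 10 and SPRY4 had 14, 6 and 1 fragments.

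**Figure D4:**
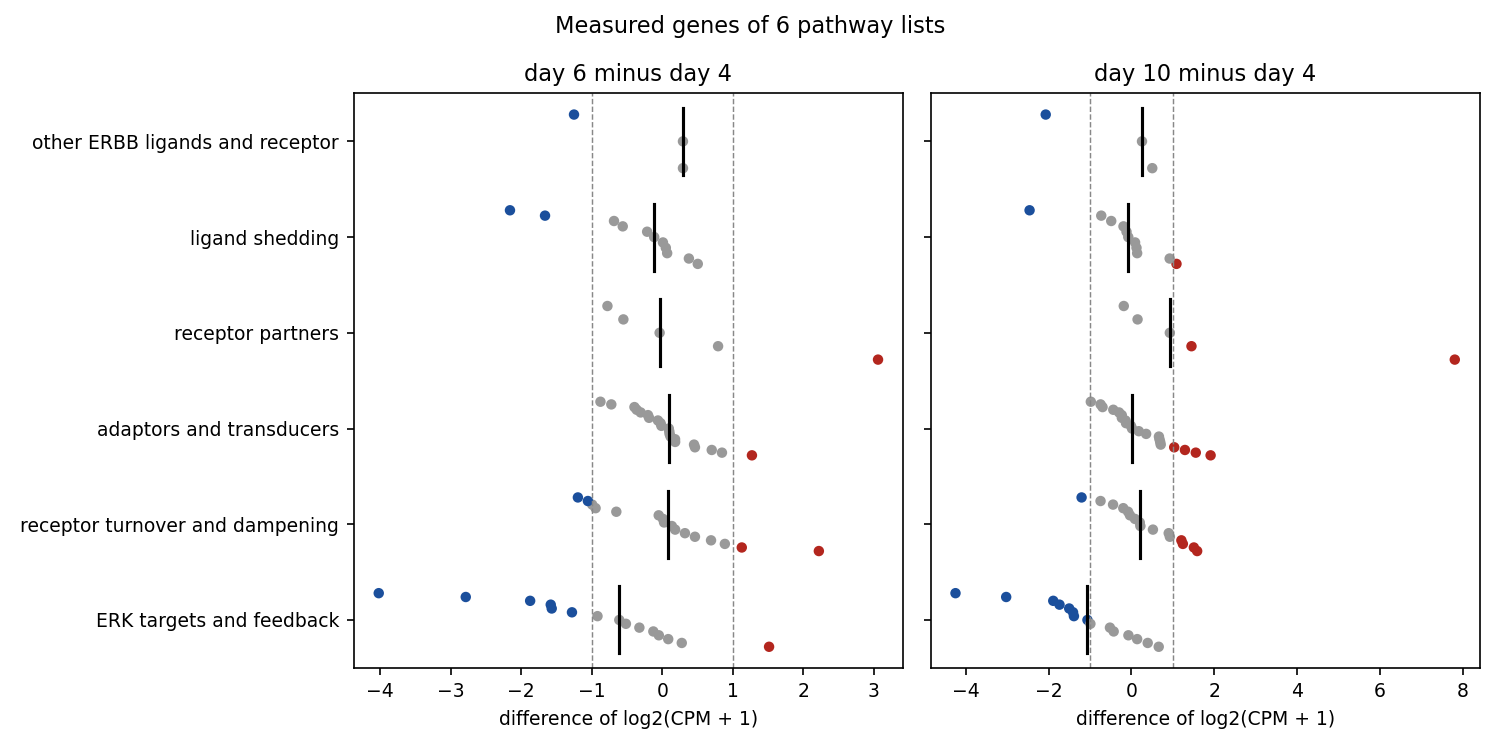
Difference of log2(CPM + 1) for the measured genes of 6 pathway lists, day 6 minus day 4 (left) and day 10 minus day 4 (right); each point is 1 gene, blue fell and red rose by 2-fold, and black bars are list medians. The ERK target list has its median at -0.61 and -1.06, and the adaptor list at 0.09 and 0.01.

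Over the 6 lists together, 71 genes were measured, of which 5 rose and 11 fell by day 6, and 11 rose and 11 fell by day 10. The shares of all measured genes that rose and fell were 8.06% and 6.73% by day 6, and 17.1% and 15.8% by day 10. On the TPM scale 6 rose and 17 fell by day 10, while of 12331 genes measured on that scale 1383 rose and 2946 fell. On the log2(CPM + 1) scale the medians of the 71 genes were -0.04 by day 6 and -0.01 by day 10.

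The genes with a course most like a member's were ranked by the distance between their pairs of log2(CPM + 1) differences, at both steps, among 8309 other named genes with at least 10 CPM in a library. With 3 libraries this rests on 2 differences for each gene and is a description. Nearest to AREG were ADAMTS1 (distance 0.0659), TRMT6 (0.212) and FST (0.29), and 2 genes lay within 0.25. ADAMTS1, a secreted metalloprotease, was at 41.0, 6.47 and 3.67 CPM. For EREG the nearest were ACTA1, SHROOM3 and PLAUR, the urokinase receptor, with 4 genes within 0.25. For HBEGF they included IFRD1 and PLK3, again with 4 within 0.25. ERBB3 lay nearest to ACOD1, ADD3 and FAM3D, with 19 genes within 0.25. Courses with little change were common: 588 genes lay within 0.25 of EGFR, PDPK1 and SLC30A9 among the nearest, and 606 of TGFA, led by LANCL1. ERRFI1 had 278 such genes, led by PRRC2C, and ERBB2 272, led by the ribosomal protein gene RPL13A. Among the members themselves AREG and EREG were 0.741 apart and EREG and HBEGF 0.783, while AREG and ERBB3 were 4.80 apart.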

How the data were processed

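Per the labels' protocols, RNA extraction used Trizol and library preparation an Illumina TruSeq kit. Per the submitters' processing notes the genome build was OryCun2.0; which aligner and counter were run, and whether by strand, is not given in the sources used here. Each deposited table lists 38696 coding sequences. Per the file headers, the authors deposited expected counts of fragments and of reads, a coverage signal called a transcript count, FPKM, RPKM and TPM. The deposited signal and FPKM were not used. The deposited RPKM served in 1 alternative.

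For each gene name the fragments of its coding sequences were added up and rounded; the design assumed such counts. Of 5185 LOC names 671 took a symbol from the RefSeq gene table of mOryCun1.1, among them HGS. Scaling used TMM factors of 1.071, 0.958 and 0.974 (edgeR 4.0.16, R 4.3.3); size factors came from DESeq2 1.42.0. Fold intervals are exact Clopper-Pearson and levels exact Poisson intervals (scipy 1.17.1), for counting error only. These intervals treat fragments as independent, which PCR copies are not, so they may be too narrow even for that. The fold rule was checked on simulated data with counting noise alone, which leaves out how cultures vary. No p-value was computed.

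Named genes are the members, up to 3 largest rises and falls of each pathway list past 2-fold in each comparison, the 3 nearest courses of each member (of which some are not reported here), and from the marker lists the most abundant gene, the largest change and markers at 0. ADAM17, RHBDF1, RHBDF2, CD44, MUC1, ERBIN, EGF, NRG2, NRG3, NRG4, ERBB4, SPRY4 and the markers CDH1, THY1, PTPRC and CSF1R are outside that rule and were chosen after their values were seen. The members and lists were chosen with earlier results of these data known. No table of protein or promoter sequences was used here.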

Additional observations from a re-analysis of the deposited data

How the results depend on the processing

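Over 10 alternatives, 0 of 90 called member values turned sign and 87 kept their call. The filters and the 4-fold threshold left the values themselves unchanged, and a change of pseudocount cannot turn a sign. Only the other alternatives could have turned one. At a 4-fold threshold ERBB3 was no longer called at either single step, nor HBEGF from day 4 to day 10, which left 0 rising members between day 4 and day 6 and 0 between day 6 and day 10. With a pseudocount of 0.1, 2 members rose from day 6 to day 10 (ERBB3 and EPGN), and with read counts 2 rose from day 4 to day 10 (ERBB3 and ERBB2). With TPM EPGN also fell by day 6. Pathway genes up by day 6 were 3 with TPM, 3 with a pseudocount of 5 and 2 at 4-fold, and down 3 at 4-fold. From day 6 to day 10, 2 were up and 0 down at 4-fold, and 3 down with a pseudocount of 0.1. By day 10, 6 were up and 17 down with TPM, and 1 up and 4 down at 4-fold. Of all measured genes 1033 rose and 863 fell by day 6; TPM gave 558 and 1629, a pseudocount of 5 gave 472 and 451, and 4-fold 151 and 86. From day 6 to day 10, 1058 rose and 910 fell, against 562 and 452 with a pseudocount of 5 and 215 and 32 at 4-fold. From day 4 to day 10, 2190 rose and 2024 fell, against 1383 risers with TPM, 1324 and 1319 with a pseudocount of 5, and 603 and 396 at 4-fold. Taking the highest coding sequence in place of the sum put EGFR at 53.9%, 34.9% and 26.5% of receptor TPM and AREG at 35.8%, 21.4% and 12.2% of ligand TPM on days 4, 6 and 10, because fragments were divided among the coding sequences of a gene. The cause of the other changes was not tested. No paired analysis was possible because each stage has 1 library, and for the same reason no library could be left out.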

Other observations

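In the mOryCun1.1 gene table, used here for names and order alone, BTC, AREG, EREG and EPGN are 4 protein-coding genes in a row. Of the outer members, BTC was not measured, with 4 fragments or fewer in each library. EPGN, with 36 or fewer, was not called at either step. Its ratio from day 4 to day 6 was 0.530 [0.273 to 0.997], and with TPM it was called as a fall there. Next to BTC lies PARM1, a mucin-like membrane protein gene, which went the other way from AREG and EREG: it had 14, 74 and 136 fragments and rose 4.78-fold [2.67 to 9.16] by day 6. Beyond it RCHY1 was at 29.4, 49.5 and 46.5 CPM and THAP6 at 2.94, 4.89 and 5.93 CPM. On the other side MTHFD2L, a mitochondrial folate enzyme gene, was at 8.81, 8.21 and 6.03 CPM and was not called. Next to it the gene listed as LOC100354804 had 365, 1115 and 438 fragments. It rose 2.76-fold [2.45 to 3.12] by day 6 and then fell 2.24-fold [2.005 to 2.51]. The chemokine gene listed as GRO-A, next in the order, also peaked on day 6: it rose 3.32-fold [2.53 to 4.41] and then fell 3.49-fold [2.64 to 4.68]. The neighbours were chosen by position after the members' values were known.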
